A study of Caenorhabditis elegans with 2 samples.

Results

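The 6 genes described here, hsp-1, hsp-3, hsp-4, hsp-6, hsp-70 and hsp-110, encode Hsp70 and Hsp110 chaperones of Caenorhabditis elegans and are 6 of the 19985 protein-coding genes of the annotation. They were chosen by family membership and also selected on their peak signal values in these same lists, which were known when the genes were picked. Those values are therefore given as a description and carry no test. For each gene, every peak summit was listed from 1000 bp upstream of its annotated 5' end to its 3' end. The peaks came from chromatin immunoprecipitation and sequencing (ChIP-seq) of F22D6.2 tagged at its C-terminus with GFP and FLAG. Per the labels, both samples were biological replicates of 1 group, made from whole young adult hermaphrodites of strain OP399, genotype unc-119(tm4063) III; wgIs399, collected 67 h after being synchronized by L1 starvation. An antibody to GFP recovered the tagged protein from sonicated chromatin. All samples carried the transgene, the promoter driving it was not given in the sources used here, and in whole worms the cell types that bear a peak cannot be told apart. No stressed, mutant or untagged worms were analysed here, so "constitutive" and "stress-induced" refer to what is known of the genes and not to a treatment in this study.

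Hsp70 proteins bind exposed hydrophobic stretches of unfolded proteins and release them in a cycle driven by ATP. J-domain (Hsp40) proteins bring them their clients and stimulate ATP hydrolysis, and nucleotide exchange factors, Hsp110 among them, restart the cycle. The family is divided by compartment into cytosolic, endoplasmic reticulum and mitochondrial members, some made at all times and others made mostly when proteins misfold. Heat shock factor HSF-1 induces cytosolic chaperones through inverted repeats of GAA and TTC, the heat shock element, and the bZIP factors XBP-1 and ATF-6 induce those of the endoplasmic reticulum.

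Sequence under the summits is shown first because motif matches at high and at low summits are described from it. Each line gives the gene's own strand, 5' to 3', with 100 bases on each side of the highest pooled summit within 500 bp of the 5' end, so that the summit is base 101. The stretch of hsp-3 stops just before its annotated 5' end and is 125 bases long. Capitals mark matches to the cores TTCNNGAA and GAANNTTC of the heat shock element. Coordinates are on ce11 (WBcel235, RefSeq sequence) and lie at chrIV:17278443-17278643 (plus strand) for hsp-1, chrIII:8447048-8447248 (minus) for hsp-110, chrX:6092125-6092249 (minus) for hsp-3, chrV:4827085-4827285 (minus) for hsp-6 and chrII:7352902-7353102 (minus) for hsp-4. The last line, at chrII:11759380-11759580 (minus), is the shared promoter of F44E5.4 and F44E5.5, a pair of heat-induced Hsp70 genes outside the 6, shown because its summit differs from those of the stress-induced members.
hsp-1: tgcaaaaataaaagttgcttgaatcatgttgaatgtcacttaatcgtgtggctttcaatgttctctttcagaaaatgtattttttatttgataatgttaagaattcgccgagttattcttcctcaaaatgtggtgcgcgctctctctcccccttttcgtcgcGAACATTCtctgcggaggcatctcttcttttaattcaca
hsp-110: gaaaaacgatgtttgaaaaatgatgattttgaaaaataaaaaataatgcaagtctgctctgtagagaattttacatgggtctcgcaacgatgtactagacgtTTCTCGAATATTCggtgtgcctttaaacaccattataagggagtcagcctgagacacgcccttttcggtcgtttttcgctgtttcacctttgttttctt
hsp-3: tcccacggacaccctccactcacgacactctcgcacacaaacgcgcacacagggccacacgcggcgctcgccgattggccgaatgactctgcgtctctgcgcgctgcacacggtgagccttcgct
hsp-6: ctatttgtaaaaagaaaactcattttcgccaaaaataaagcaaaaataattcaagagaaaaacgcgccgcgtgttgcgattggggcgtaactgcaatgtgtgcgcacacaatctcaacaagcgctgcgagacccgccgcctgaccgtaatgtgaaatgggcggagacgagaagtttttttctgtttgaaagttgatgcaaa
hsp-4: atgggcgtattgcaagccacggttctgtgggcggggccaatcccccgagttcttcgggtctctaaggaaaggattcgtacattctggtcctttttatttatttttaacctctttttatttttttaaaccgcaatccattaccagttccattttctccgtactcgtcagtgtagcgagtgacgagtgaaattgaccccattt
F44E5.4: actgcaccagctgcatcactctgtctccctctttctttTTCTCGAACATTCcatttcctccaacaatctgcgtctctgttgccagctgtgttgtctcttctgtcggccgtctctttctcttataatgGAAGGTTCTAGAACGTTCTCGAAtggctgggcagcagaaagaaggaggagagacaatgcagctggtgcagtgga
The hsp-110 stretch held an overlapping pair of cores 2 bases past its pooled summit, at bases 103 to 115. The hsp-110 summits of replicates 1 and 2 lay 30 and 24 bp from the pooled one, on opposite sides, so that distance holds for the pooled summit only. The hsp-1 stretch held a single core at bases 163 to 170. None of the stretches of hsp-3, hsp-6 and hsp-4 held either core, which says only that these letters are absent from these windows. No stretch of hsp-70 is printed, but cores lay near its low summit too, 68, 73 and 180 bp upstream of its 5' end. The F44E5.4 stretch held 3 matches to each core on both sides of its summit.

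The pooled list, made by the authors from both replicates, held 26002 peaks. Its 798 highest peaks were the thresholded set that passed the irreproducible discovery rate step. The authors label the pooled list as peaks and background given as input to that step. A pooled summit outside the thresholded set is therefore a listed position and not a called binding site. The signal value of a peak was set by the authors' peak caller on a scale that was not given, so ranks within a list are printed beside it. Pooled signal values ran from 15.1 to 6333 with a median of 22.2, and the lowest thresholded peak had 80.3. The list of replicate 1 held 25000 peaks and that of replicate 2 held 23268, with medians of 13.8 and 14.2. Each list has its own scale, so no mean or SD across replicates was formed, and the number of reads behind each list is unknown.

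The cytosolic genes hsp-1 and hsp-110 had summits of nearly the same height. hsp-1, the constitutive cytosolic Hsp70 (WBGene00002005, chrIV:17278959-17281330, plus strand), had its highest summit 416 bp upstream of its 5' end, at 17278543, in a peak 210 bp wide. The pooled signal value was 192.4, at rank 115 of 26002. Replicate 1 placed it 402 bp upstream with 78.1 at rank 183, and replicate 2 placed it 416 bp upstream with 116.0 at rank 90. The summit was high in both lists, at the top 0.732% of replicate 1 and the top 0.387% of replicate 2. By position it was intergenic and lay 130 bp downstream of the 5' end of a non-coding RNA gene, F26D10.23, which points the same way as hsp-1. No 5' end of another protein-coding gene lay within 1000 bp of it.

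hsp-110 (WBGene00016250, chrIII:8443910-8446909, minus strand) encodes the larger relative of Hsp70 that acts as its nucleotide exchange factor. Its highest summit, 239 bp upstream at 8447148 in a peak 182 bp wide, had a pooled signal value of 191.6 at rank 116. Replicate 1 had 90.7 at rank 126, 269 bp upstream, and replicate 2 had 105.0 at rank 101, 215 bp upstream. This summit cannot be assigned to hsp-110 alone. It lay between divergent genes, 205 bp upstream of rpn-3, a subunit of the proteasome's regulatory particle, and it was closer to rpn-3 than to hsp-110. The 5' end of a non-coding RNA gene, C30C11.14, was 53 bp away. A second, lower summit 441 bp upstream of hsp-110 had 31.0 at rank 6124 and lay 3 bp from the 5' end of rpn-3.

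The genes of the endoplasmic reticulum had unlike summits. Both hsp-3 and hsp-4 encode the lumenal Hsp70 known in mammals as BiP, and their coding sequences were identical at 77.2% of aligned bases, the closest pair among the 6 members. hsp-3 (WBGene00002007, chrX:6089028-6092124, minus strand) is counted here as the form made at all times, which does not exclude that it too responds to stress. Its highest summit, 25 bp upstream at 6092149 in a peak 209 bp wide, had a pooled signal value of 186.0 at rank 125. Replicate 1 had 95.6 at rank 116, 75 bp upstream, and replicate 2 had 93.9 at rank 128, 26 bp upstream. No other annotated gene of any kind had its 5' end within 1000 bp of this summit, so of the high summits it was the one with no neighbour to share it.

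hsp-4 (WBGene00002008, chrII:7350112-7352645, minus strand) is the form induced by the unfolded protein response. It had 2 pooled summits, 591 and 357 bp upstream, with signal values of 21.6 and 21.3 at ranks 13915 and 14280. Their −log10 q-values were 0.163 and 0.152, where the highest in the pooled list is 2.44. Replicate 1 listed 1 summit, 585 bp upstream, with 13.4 at rank 13371. Replicate 2 listed 1 summit, 352 bp upstream, with 15.2 at rank 9885. Each replicate thus matched a different pooled summit, and both pooled values were below the median of their list. The upstream neighbour haf-2, an ABC transporter gene, points the same way, and its 5' end is not at these summits. The signal value of the hsp-3 summit was 8.36 times the median of the pooled list, and that of the nearer hsp-4 summit was 0.957 times it. The longest identical run between the loci was 25 bp. In the hsp-4 peak 88.8% of 36-base words occurred once in the genome, against 100% in the peaks of the other members.

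hsp-6, the mitochondrial Hsp70 (WBGene00002010, chrV:4824124-4826760, minus strand), had intermediate values. It is made at all times, and its transcription also rises in the mitochondrial unfolded protein response. Its highest pooled summit, 425 bp upstream at 4827185, had 62.8 at rank 1314, below the thresholded set. Replicate 1 had 31.1 at rank 1634, 417 bp upstream, and replicate 2 had 28.7 at rank 2153, 442 bp upstream. The summit was listed at like ranks in both. Its −log10 q-value in the pooled list was 2.44, the highest there and shared by the top summits of hsp-1, hsp-110 and hsp-3. It lay 175 bp upstream of the divergent gene C37H5.5 and inside the non-coding RNA genes C37H5.15 and C37H5.16, so hsp-6 was not the nearest gene. In replicate 2 the highest summit of hsp-6 was not this one but one inside the gene, 651 bp past the 5' end, with 31.0 at rank 1775.

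hsp-70 (WBGene00002026, chromosome I, 9320325 to 9322519, minus strand) is the heat-induced cytosolic Hsp70. The whole gene lies within uggt-2, a glucosyltransferase gene of the opposite strand. It had a single pooled summit in the window, 109 bp upstream and in an intron of uggt-2, with 26.9 at rank 8430. Replicate 1 listed it 136 bp upstream with 17.04 at rank 7542, and replicate 2 listed no summit in the window. The pooled value was 1.21 times the median of its list, and the pooled −log10 q-value was 0.373.

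**Figure D1:**
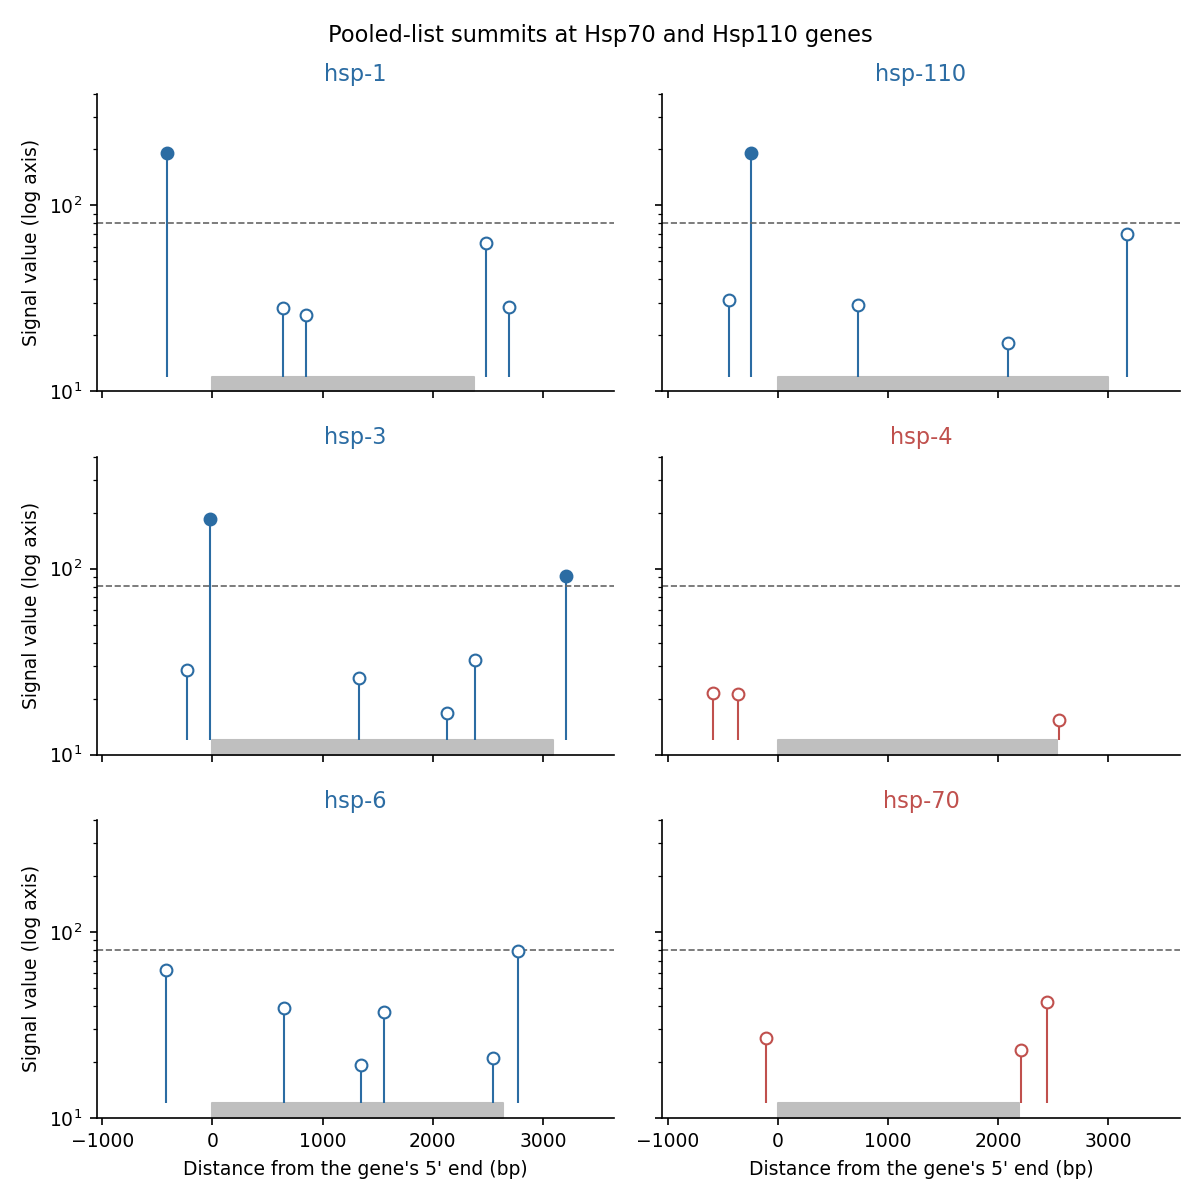
Pooled summits (points, signal value on a log axis, filled where thresholded) along each of the 6 genes and just past their 3' ends, by distance from the annotated 5' end in bp, with the gene as a grey bar and the thresholded minimum of 80.3 as a dashed line. The highest upstream summits of hsp-1, hsp-110 and hsp-3 stand at 192.4, 191.6 and 186.0, while those of hsp-4 and hsp-70 stand at 21.6 and 26.9.

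By known regulation, 3 of the 4 constitutive genes and 0 of the 2 stress-induced genes had a thresholded summit within 500 bp of the 5' end. The division is not a strict one, since hsp-1 and hsp-110 are also known to respond to heat to a degree and hsp-6 to mitochondrial stress. The response of hsp-3 or of any other member to stress was not measured here. The count is 3 of 6 members, beside 411 of 19985 protein-coding genes (2.06%). In the longer window, from 1000 bp upstream to the 3' end, the same 3 members had a thresholded summit, beside 690 genes (3.45%). Any pooled summit in that window was found for 6 of 6 members, beside 10820 genes (54.1%). A summit within 500 bp in both replicate lists was found for the 4 constitutive members and neither stress-induced one, beside 3225 genes (16.1%). Because the members were chosen with these lists known, nothing is read from these counts against their backgrounds, and with 4 genes against 2 the contrast has no test. Just inside the threshold, at a minimum of 80.3, there was no member value between it and hsp-3, which stood 2.32 times above it. Just outside it, hsp-6 stood at 0.782 times the minimum, and hsp-70 and hsp-4 at 0.335 and 0.265 times.

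Among all genes ordered by their highest pooled summit within 500 bp, 56 genes were at least as high as hsp-1, counting hsp-1 itself, 58 as high as hsp-110 and 60 as high as hsp-3. For hsp-6 the number was 661, or 3.31% of all genes, for hsp-70 it was 2814 (14.1%) and for hsp-4 it was 4064 (20.3%). Among the 6033 genes with any such summit the median highest value was 25.7, with quartiles of 19.6 and 38.4. hsp-70 was thus near that median, and hsp-4 was between it and the lower quartile.

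**Figure D2:**
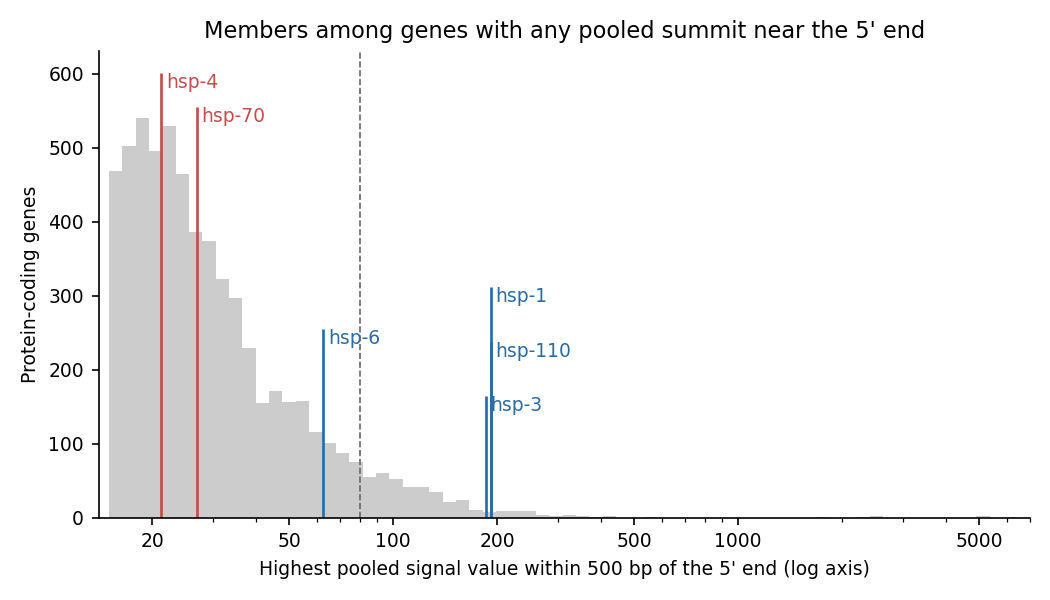
Number of protein-coding genes (y axis) by the highest pooled signal value within 500 bp of the 5' end (x axis, log scale), for the 6033 genes with any, with a line for each member and a dashed line at the thresholded minimum of 80.3. hsp-4 (21.3) and hsp-70 (26.9) fall in the bulk of the genes, hsp-6 (62.8) on its upper flank, and hsp-3, hsp-110 and hsp-1 (186.0 to 192.4) in the thin upper tail.

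The order of the 3 high members was not the same in both replicates. In replicate 1 hsp-3 ranked 116, hsp-110 ranked 126 and hsp-1 ranked 183. In replicate 2 hsp-1 ranked 90, hsp-110 ranked 101 and hsp-3 ranked 128. These 3 neighbours in the pooled order, whose values ranged from 186.0 to 192.4, are therefore not separated beyond the spread between replicates, whereas hsp-6 was below all of them in both lists. The order of hsp-4 and hsp-70 cannot be given from the replicates, since replicate 2 lists no summit for hsp-70 and replicate 1 lists none within 500 bp for hsp-4. Other genes with a like signal value in the pooled list were pqn-71, a gene for a protein rich in glutamine and asparagine, with 192.5 (ranks 100 and 123 in replicates 1 and 2), lgg-2, an autophagy gene of the LC3 family, with 186.6 (136 and 126), and ntl-11, a subunit of the CCR4-NOT deadenylase, with 184.9 (139 and 120). They were picked as the genes next above or below a member in that single value.

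**Figure D3:**
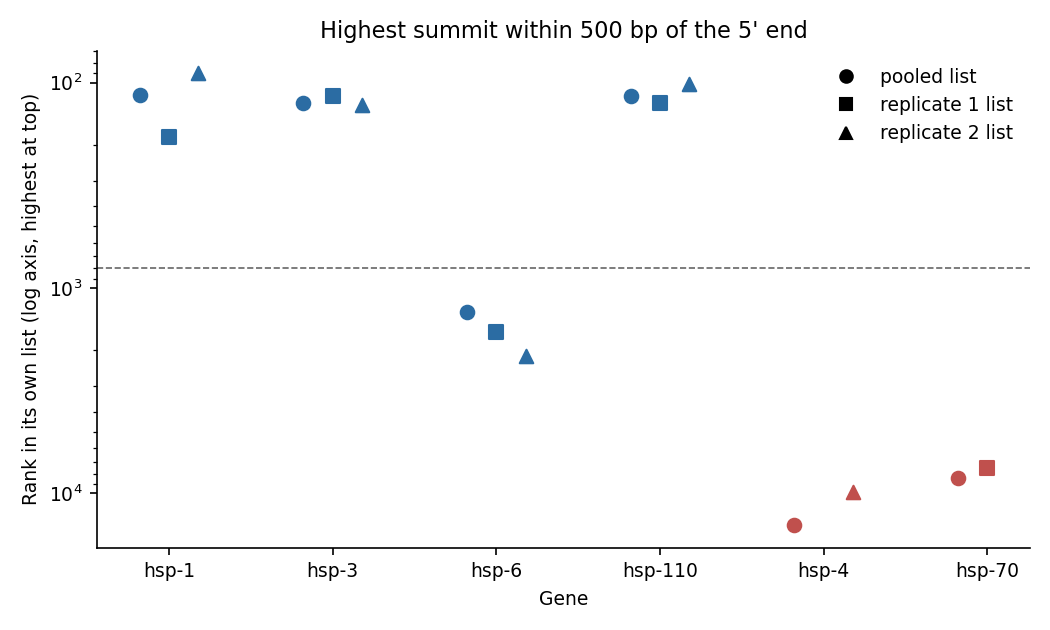
Rank of the highest summit within 500 bp of the 5' end of each member (y axis, log scale, rank 1 is the highest) in the pooled (circles), replicate 1 (squares) and replicate 2 (triangles) lists, with a dashed line at rank 798. hsp-1, hsp-3 and hsp-110 lie between ranks 90 and 183 in all lists and change order, hsp-6 lies between 1314 and 2153, and a missing point means that the list has no summit there.

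Lower summits lay along the genes as well. The pooled list held 5 summits in the window for hsp-3, 5 for hsp-6, 4 for hsp-110 and 3 for hsp-1, against 2 for hsp-4 and 1 for hsp-70. Leaving out its thresholded summit, hsp-1 had 2, as many as hsp-4. Per kb of window this was 1.37 for hsp-6, 1.22 for hsp-3, 1.00 for hsp-110, 0.890 for hsp-1, 0.566 for hsp-4 and 0.313 for hsp-70, and 0.285 over the windows of all protein-coding genes. Of the 20 pooled summits of the members, 11 lay inside the gene, all of them in the 4 constitutive genes and 9 of them in coding exons. No share over all genes stands beside these counts, so nothing is read from them about constitutive genes or coding exons. The signal values of the 11 were low, from 16.8 to 39.1 at ranks 3554 to 22000, with −log10 q-values from 0.0426 to 1.29. The highest of these summits lay in hsp-6, 646 and 1556 bp past the 5' end, with 39.1 and 37.3. Both had a summit within 100 bp in replicate 2 only, at ranks 1775 and 1892. For the second the distance was 100 bp, the limit of a match. That replicate 2 summit was itself 94 bp from a replicate 1 summit at rank 18786.

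The positions of summits were also compared between replicates. Of the 17 pooled summits of constitutive genes 9 had a summit within 100 bp in both replicate lists and 8 in 1 of them. Of the 3 summits of stress-induced genes 0 had one in both and 3 in 1 of them. Over the whole pooled list 22.6% of summits were matched in both. For the gene-body summits 4 of 11 were matched in both. Among these was a summit 2388 bp past the 5' end of hsp-3, in a coding exon, with 32.3 at pooled rank 5601. It ranked 7565 in replicate 1 and 4013 in replicate 2.

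Each constitutive gene had a further summit just past its 3' end. This was noticed after the windows had been listed. The hsp-3 summit, 113 bp past the end at 6088915, had 91.3 at rank 620 and was in the thresholded set. It ranked 980 in replicate 1 and 696 in replicate 2, and the nearest protein-coding 5' end, that of C45B2.8, was 939 bp away. The hsp-6 summit, 141 bp past the end, had 79.3 at rank 830, just under the thresholded minimum. It also lay 560 bp upstream of adss-1, a gene of the same strand. It ranked 426 in replicate 1 with 55.4, while the replicate 2 summit within 100 bp ranked 6402 with 18.3, and a further replicate 2 summit 268 bp past the end ranked 2184 with 28.5. The replicates thus differed more here than at the other 3 genes. The hsp-110 summit, 169 bp past the end, had 70.2 at rank 1050, with ranks 1261 and 1225 in the replicates. It also lay 134 bp upstream of ufbp-1, a gene of the ufmylation pathway,, so either gene can be counted with it. The hsp-1 summit, 113 bp past the end, had 62.4 at rank 1324, with ranks 1007 and 2229, and lay by the 3' end of the convergent gene nra-1.

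The stress-induced genes had only low summits at this distance. hsp-4 had 15.3 at rank 25531, 23 bp past the end, and neither replicate matched it. hsp-70 had 23.3 at rank 11740, 17 bp past the end and 130 bp from the 5' end of a tRNA gene, matched in replicate 1 only. A higher hsp-70 summit, with 41.9 at rank 3062, lay 255 bp past the end. It was 108 bp upstream of that tRNA gene and 34 bp upstream of another. That summit was matched in both replicates, at ranks 3845 and 4822. It fell just outside the limit of 250 bp, which was set after the lists were seen. Some pooled summit from 1 to 250 bp past the 3' end was found for 6 of 6 members, beside 2371 genes (11.9%). One at least as high as that of hsp-1 was found for the 4 constitutive members, beside 187 genes (0.936%), a limit that was set on the members' own values and from which nothing is read.

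**Figure D4:**
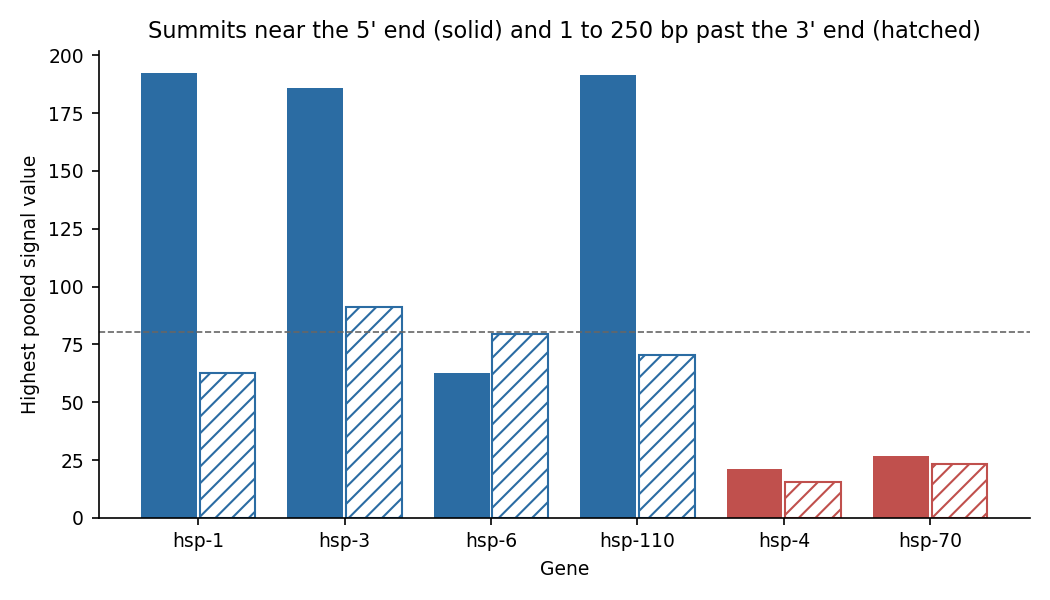
Highest pooled signal value (y axis, linear from 0) within 500 bp of the 5' end (solid bars) and from 1 to 250 bp past the 3' end (hatched bars) of each member, constitutive in blue and stress-induced in red, with the thresholded minimum of 80.3 as a dashed line. The 3' values of the 4 constitutive genes run from 62.4 to 91.3, and those of hsp-4 and hsp-70 are 15.3 and 23.3.

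Motif cores were looked for in the promoters of genes with high and with low summits. From 250 bp upstream to 50 bp downstream of the 5' end, on both strands, TTCNNGAA was present in hsp-1, hsp-110, hsp-4 and hsp-70, 4 of 6 members, beside 18.9% of all protein-coding promoters. GAANNTTC was present in the same 4, beside 18.5%, and matches to these cores can overlap by 3 letters. Both cores were thus found at genes with high summits and at genes with low ones. TGACGTG, a bZIP site of the kind bound by XBP-1 and ATF-6, was present in 2 of 6 members, hsp-3 and hsp-4, beside 2.93% of promoters. It lay 132 bp upstream of hsp-3 and 83 bp upstream of hsp-4, so both genes of the endoplasmic reticulum held it while their summits had pooled signal values of 186.0 and 21.3. TATAAA was present in 3 of 6 members, hsp-3, hsp-70 and hsp-110, beside 38.0%. From 500 bp upstream to 100 bp downstream, TGACGTG was also present in the cytosolic hsp-110, giving 3 of 6 beside 5.40%. In that wider window both heat shock cores were present in hsp-6 too, giving 5 of 6, beside 34.5% for TTCNNGAA and 34.2% for GAANNTTC. TATAAA stayed at 3 of 6, beside 58.1%. A match to such letters is a description of the sequence and not of binding by a factor.

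Within 150 bp of the pooled summit, hsp-110 had 2 matches to each core, and the overlapping pair shown above began 2 bases from that summit. Its promoter held TTCNNGAA 237 and 110 bp upstream of the 5' end. The summit was 239 bp upstream in the pooled list, 269 bp in replicate 1 and 215 bp in replicate 2. Within 150 bp of its summit hsp-1 had 2 matches to GAANNTTC, 1 of them 62 bases past the summit as printed above, and 0 to TTCNNGAA. Its promoter also held the cores 139 and 144 bp upstream of the 5' end. Among members with a low summit, hsp-70 had 1 match to TTCNNGAA and 2 to GAANNTTC within 150 bp of its summit. For hsp-6 there was 1 match to each, and hsp-3 and hsp-4 had 0. Of the 330 thresholded promoter summits on nuclear chromosomes, 58 (17.6%) had TTCNNGAA and 67 (20.3%) had GAANNTTC within that distance. The hsp-3 stretch was also the richest in G and C, at 62.7% over 201 bp, beside 37.8% for hsp-1 and hsp-110, 43.8% for hsp-6, 44.3% for hsp-4 and a median of 43.3% over the 330.

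The contrast between constitutive and stress-induced members did not extend to another heat-induced pair. F44E5.4 (chrII:11757107-11759311, minus strand) and F44E5.5 (chrII:11759662-11761861, plus strand) encode heat-induced cytosolic Hsp70 and are transcribed away from each other, with 5' ends 351 bp apart. A summit between them at 11759480, 169 bp upstream of F44E5.4 and 182 bp upstream of F44E5.5, had 228.8 at rank 89. It ranked 92 in replicate 1 and 80 in replicate 2, higher than any member in each of the 3 lists. hsp-70, whose coding sequence was identical to that of F44E5.4 at 80.3% of aligned bases, had 26.9. The coding sequences of the pair were identical to each other, and only 1.84% of the 36-base words in F44E5.4 and 2.08% in F44E5.5 occurred once in the genome. In the peak between them the share was 93.9%, so the summit itself lay in sequence that was largely unique. With this pair joined to hsp-4 and hsp-70, 2 of 4 stress-induced genes had a thresholded summit within 500 bp. Of the other 4 Hsp70 superfamily genes in that list none had a thresholded summit there, and T14G8.3 had a pooled one with 47.7 at rank 2353.

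Other chaperone and stress-response genes, partners of Hsp70 among them, were described from lists of 87 genes with a match in the annotation. Of these, 15 (17.2%) had a thresholded summit within 500 bp, beside 2.06% of all protein-coding genes. The 15 include F44E5.4 and F44E5.5, which share a summit. The lists were chosen with earlier results of these data known, so nothing is read from their counts against that background. Nucleotide exchange factors and adaptors held 4 of 10. These were C34C12.8, the mitochondrial GrpE relative, with 171.2 at rank 140, bag-1 with 137.4 at rank 240, unc-23, a BAG domain gene, with 120.6 at rank 316, and ahsa-1, an activator of Hsp90, with 113.5 at rank 381. Of 29 J-domain genes 3 had one, namely dnj-9 with 204.2 at rank 102, dnj-13 with 166.4 at rank 145 and dnj-19 with 123.0 at rank 303. The rest of the J-domain genes had none there.

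Among the chaperonin genes 3 of 10 had a thresholded summit. Y22D7AL.10, the mitochondrial Hsp10, had 220.9 at rank 94, above the summit of hsp-6 in the same compartment. By contrast, hsp-60, also mitochondrial and in the same list, had no pooled summit within 500 bp. The cytosolic chaperonin subunits cct-8 and cct-1 had 202.0 at rank 105 and 120.0 at rank 323. Of 4 Hsp90 genes only enpl-1, the endoplasmic reticulum form, had one, with 113.2 at rank 385. Of 16 stress response regulators 2 had one, the unfolded protein response factors xbp-1 with 108.7 at rank 422 and atf-6 with 81.0 at rank 786. The kinase gene ire-1, which acts upstream of xbp-1 and hsp-4, had no pooled summit within 500 bp. Small heat shock genes, some of which are strongly induced by heat and others not, had 0 of 12, beside the same 2.06% of all genes. The median was 24.0 among the 6 that had any pooled summit near the 5' end. That value belongs to a summit shared by hsp-16.2 and hsp-16.41, which is counted for each of them. The summits of cct-8, cct-1, dnj-19, ahsa-1 and enpl-1 were shared with the 5' end of a neighbouring protein-coding gene.

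**Figure D5:**
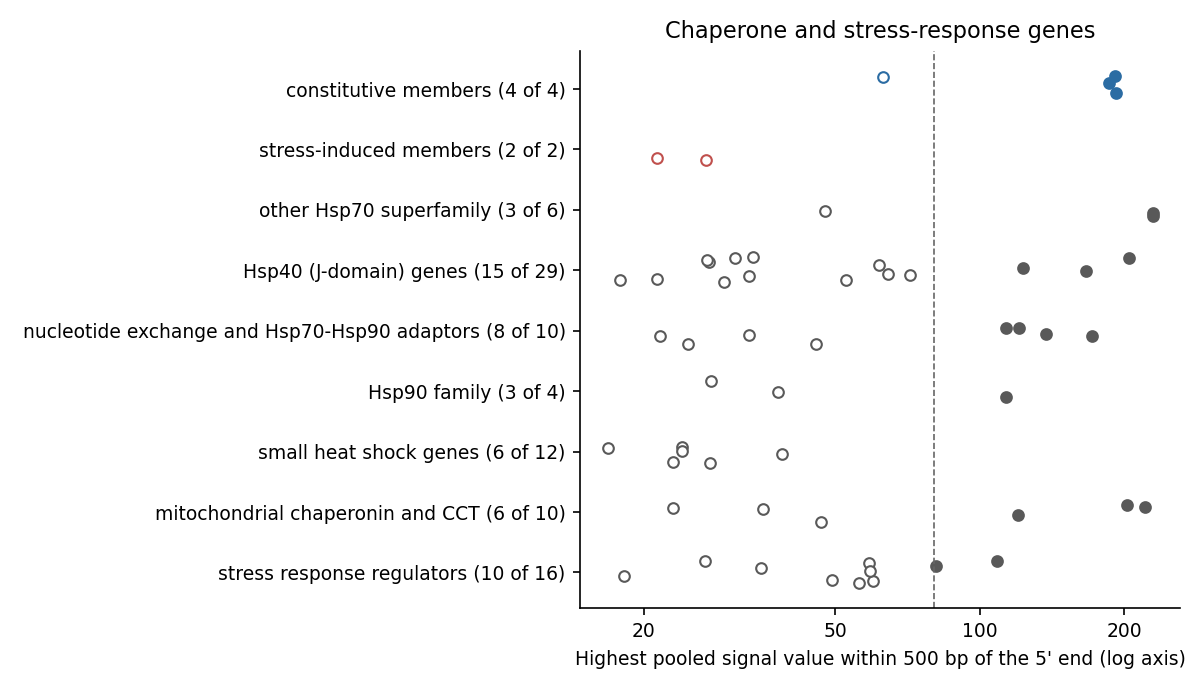
Highest pooled signal value within 500 bp of the 5' end (x axis, log scale) for members and for genes of the other lists (y axis), filled where the summit is in the thresholded set, with the number that had any pooled summit in parentheses. The F44E5.4 and F44E5.5 points lie together at 228.8, above all members, and no small heat shock gene passes the dashed line at 80.3.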

How the data were processed

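ChIP-seq peaks of F22D6.2 with GFP and FLAG were analysed from 2 biological replicates of 1 group of whole young adult worms. The authors deposited peak lists on ce11 for each replicate, for both together (pooled) and for a thresholded set, and per the deposited file descriptions the same control served both replicates. The deposited signal value of a peak was used only to rank and describe peaks within a list, as its scale was not given. In the pooled list no deposited −log10 q-value was above 2.44, a value that many peaks share. The offset of each summit came from the deposited lists. Software for alignment and peak calling, with its versions, and the irreproducible discovery rate limit are not given in the sources used here. The number of reads is not given either, so the depth is unknown and no counting interval was formed.

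The annotation was that of Ensembl, release 115, on WBcel235, bases were read from RefSeq's genome file of the same assembly, and coordinates are counted from 1. The 4 lists on ce10 were not used here, and no coordinates were converted. Ranks follow signal value, highest first, with ties given the better rank, and count mitochondrial peaks. With those left out, hsp-1, hsp-110 and hsp-3 ranked 95, 96 and 105 in the pooled list. Summits within 100 bp were called matched between lists. Gene windows, motif searches on both strands and shared summits were computed with Python 3.11.15, pandas 2.3.3, numpy 2.4.6 and Biopython 1.88, and the steps were tested on simulated data. Identity is the share of identical bases in a pairwise alignment of coding sequences. The 36-base word length is a chosen one, as read length was not given. Members, gene lists, motifs and the division into constitutive and stress-induced genes were chosen with earlier results of these data known. The genes named are the members, those that share a member's thresholded summit, the next gene above and below in signal value, and every listed gene with a thresholded summit within 500 bp. Neighbours of the other summits (C37H5.5, haf-2, uggt-2, C45B2.8, adss-1, ufbp-1, nra-1, F26D10.24 and the tRNA genes) were named after their positions were seen. The same holds for T14G8.3, ire-1, hsp-60, hsp-16.2 and hsp-16.41. Alternatives changed the window, the 5' end, the size of the thresholded set and the replicate used.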

Additional observations from a re-analysis of the deposited data

How the results depend on the processing

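The count of members with a thresholded summit within 500 bp of the 5' end was 3 of 6. It was also 3 with the 399 or the 1197 highest pooled peaks in place of the thresholded 798, with the coding start in place of the 5' end, and with as many of the highest peaks of replicate 1 or of replicate 2 alone. It was 2 within 250 bp (hsp-3 and hsp-110) and 2 when each summit went only to its nearest 5' end (hsp-1 and hsp-3), since the hsp-110 summit is nearer to rpn-3. For stress-induced members the count was 0 in every alternative planned, and 2 of 4 with F44E5.4 and F44E5.5 joined to them, an alternative chosen after seeing the data. For the other listed genes the count of 15 ranged from 10 to 18. Replicate 2 alone had a summit in the window for 5 of 6 members and gives no rank for hsp-70. The depth of the lists is unknown, so a gene with no summit is not shown to lack binding, and the number of replicates limits the precision of every rank.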
